A study of Homo sapiens with 12 samples.

Results

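The genes described here encode acute phase plasma proteins, which the liver secretes into blood. The list named 10 genes (HP, HPX, ORM1, ORM2, SAA1, SAA2, SAA4, CRP, LBP and SERPINA3), and its members were the rows of the count table that carried one of these symbols. That left 7 members among the 16389 genes of the table. SAA1, SAA2 and CRP had no row in the table used here and were not analysed here. The data were poly(A)-selected RNA-seq libraries of HepG2, a human hepatoma line, from ATCC cells at passage 9. Cells were grown for 48 h in medium with 5.5 mM glucose (LG) or 20 mM glucose (HG). In the LGV and HGV groups the cells of each medium were then exposed to 1 mM valproic acid (VPA) for another 12 h. VPA is an anticonvulsant that also inhibits histone deacetylases. Whether the untreated cells were kept in culture for these 12 h was not stated. The part of time in culture in the differences with VPA was not tested. Each of the 4 groups had 3 libraries. HepG2 is a transformed line grown without the other cells of the liver, and all groups shared this background. The replicates were not stated to be separate cultures, so the p-values given here measure the spread between these libraries.

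The acute phase response is the shift in plasma protein synthesis that follows infection, injury or inflammation. Interleukin-6 acts on hepatocytes through the gp130 receptor and the transcription factor STAT3, while interleukin-1 and tumour necrosis factor act through NF-kB, and liver factors of the C/EBP and HNF families bind many of the target promoters. Proteins that rise in plasma are called positive acute phase proteins, and proteins such as albumin and transthyretin, which fall, are called negative. Haptoglobin (HP) binds free haemoglobin and haemopexin (HPX) binds free haem. LBP hands bacterial lipopolysaccharide to CD14, SERPINA3 (alpha-1-antichymotrypsin) inhibits chymotrypsin-like proteases, ORM1 and ORM2 (the alpha-1-acid glycoproteins or orosomucoids) are lipocalins that carry drugs and lipids, and SAA4 is the constitutive serum amyloid A apolipoprotein.

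Several members have near copies or overlapping genes, which decides how well 50 nt reads can be assigned to them. Positions are those of GENCODE v44 on GRCh37. ORM1 (chr9:117085378-117088759, + strand) and ORM2 (chr9:117092149-117095531, + strand) lie side by side, and their coding sequences were identical at 572 of 603 bases (94.9%). Of the 50-base windows in the canonical ORM1 transcript, 49.8% also occurred in ORM2. The 60 coding bases below, from base 338 to base 397 of each coding sequence, are shown because they hold 14 of the 31 differences, with the differing bases in capitals. They lie at chr9:117087079-117087138 in ORM1 and at chr9:117093856-117093915 in ORM2.
ORM1: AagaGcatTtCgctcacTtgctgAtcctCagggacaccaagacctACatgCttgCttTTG
ORM2: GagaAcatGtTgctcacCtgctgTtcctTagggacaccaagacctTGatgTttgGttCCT
Reads over this stretch can tell the genes apart, while the longest identical stretch of 206 bases cannot.

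HP (chr16:72088404-72094954, + strand) is followed by its paralogue HPR (chr16:72097047-72111145, + strand), which encodes haptoglobin-related protein. Their coding sequences matched at 995 of 1041 aligned bases (95.6%), and 34.5% of the 50-base windows of HP also occurred in HPR. The stretch printed next is shown for the same reason and has 10 differences, in capitals. It lies at chr16:72094476-72094535 in HP and at chr16:72110667-72110726 in HPR.
HP: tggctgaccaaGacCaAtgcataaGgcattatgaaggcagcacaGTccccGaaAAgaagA
HPR: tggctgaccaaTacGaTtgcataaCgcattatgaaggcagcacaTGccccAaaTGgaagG
SAA4 (chr11:18252902-18258349, - strand) shared 74.0% of its windows with the SAA2-SAA4 readthrough transcript of the same strand. All windows of the canonical SERPINA3 transcript (chr14:95078721-95090392, + strand) were shared with an overlapping readthrough gene, ENSG00000273259. HPX (chr11:6452279-6463847, - strand) and LBP (chr20:36974885-37005655, + strand) shared none with another gene. The counting required a mapping quality of at least 10. How many reads over the shared windows this removed was not tested. How any remaining reads that match more than 1 gene were treated was not stated. The levels of ORM1, ORM2, HP, SAA4 and SERPINA3 carry that uncertainty.

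The 12 libraries held 29798442 to 45572694 reads (median 32536917.5), and a floor of 3 reads corresponded to 0.0713 to 0.112 CPM. All 10 hepatocyte markers were in the table, with a summed level of 54289 to 61271 CPM in LG, 55500 to 63845 in HG, 41281 to 42248 in LGV and 48726 to 63094 in HGV. Of these 10 markers 2 rose and 0 fell in HG against LG, and 0 rose and 7 fell in LGV against LG. In HGV against HG 1 rose and 3 fell, and in HGV against LGV 4 rose and 0 fell. The shares of all genes called are given below for each comparison. These markers overlap lists described below. SERPINA1 and FGB are also listed as positive and ALB, TTR, TF and APOA1 as negative acute phase proteins, and HNF4A as a liver transcription factor. Of 6 macrophage markers only CD14 and CSF1R had a row, and their sum was 1.55 to 2.63 CPM in LG, 4.03 to 4.87 in HG, 1.08 to 1.89 in LGV and 3.50 to 3.80 in HGV. Endothelial markers (2 of 4 in the table) summed to 2.21 to 4.85 CPM, and stellate cell and fibroblast markers (3 of 5) to 43.7 to 78.0 CPM. The part of these levels in the results was not tested. In bulk RNA, fewer cells of a kind and less RNA per cell cannot be told apart.

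High glucose raised HP, SERPINA3 and LBP, and VPA lowered all members tested in LG and all but LBP in HG, whereas the ORM pair did not rise with glucose and under VPA was lower in high glucose than in low. Genes were tested with the quasi-likelihood F test of edgeR and called at a false discovery rate (FDR) of 0.05 or less after Benjamini-Hochberg adjustment over all genes tested. With glucose alone (HG against LG), 3 of 7 members were called higher and 0 lower, while 12.0% of the 15452 genes tested were called higher and 12.7% lower. In LGV against LG, 0 members were higher and 6 of 6 tested were lower, against 21.7% and 19.9% of 15944 genes. HGV against HG gave 0 higher and 6 of 7 lower, against 25.8% and 20.2% of 16188 genes. With VPA present in both media (HGV against LGV), 4 of 7 members were called higher and 2 lower, against 21.2% and 19.5% of 16208 genes. LBP is among those called higher, and its mean count there reached the 10 required for testing only through HGV. The comparisons share groups and are therefore not independent of each other.

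The median log2 fold change of the members tested was 0.54 in HG against LG, -1.37 in LGV against LG, -1.65 in HGV against HG and 0.77 in HGV against LGV. Over all genes tested these medians were 0.01, -0.01, 0.02 and 0.01. The 2 groups compared did not overlap for 4 of 7 members in HG against LG, where this held for 41.2% of all genes. They did not overlap for 6 of 6 members in LGV against LG (50.5% of genes), 6 of 7 in HGV against HG (54.6%) and 6 of 7 in HGV against LGV (51.4%). Scaling by library size alone put the median of all genes at 0.11, 0.16, 0.15 and 0.10 in the same order and moved the share of higher calls among all calls from 48.6% to 62.6% in HG against LG, from 52.1% to 69.7% in LGV against LG, from 56.1% to 68.1% in HGV against HG and from 52.2% to 62.0% in HGV against LGV. Under that scaling ORM2 in HG against LG was the member whose sign changed.

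**Figure D1:**
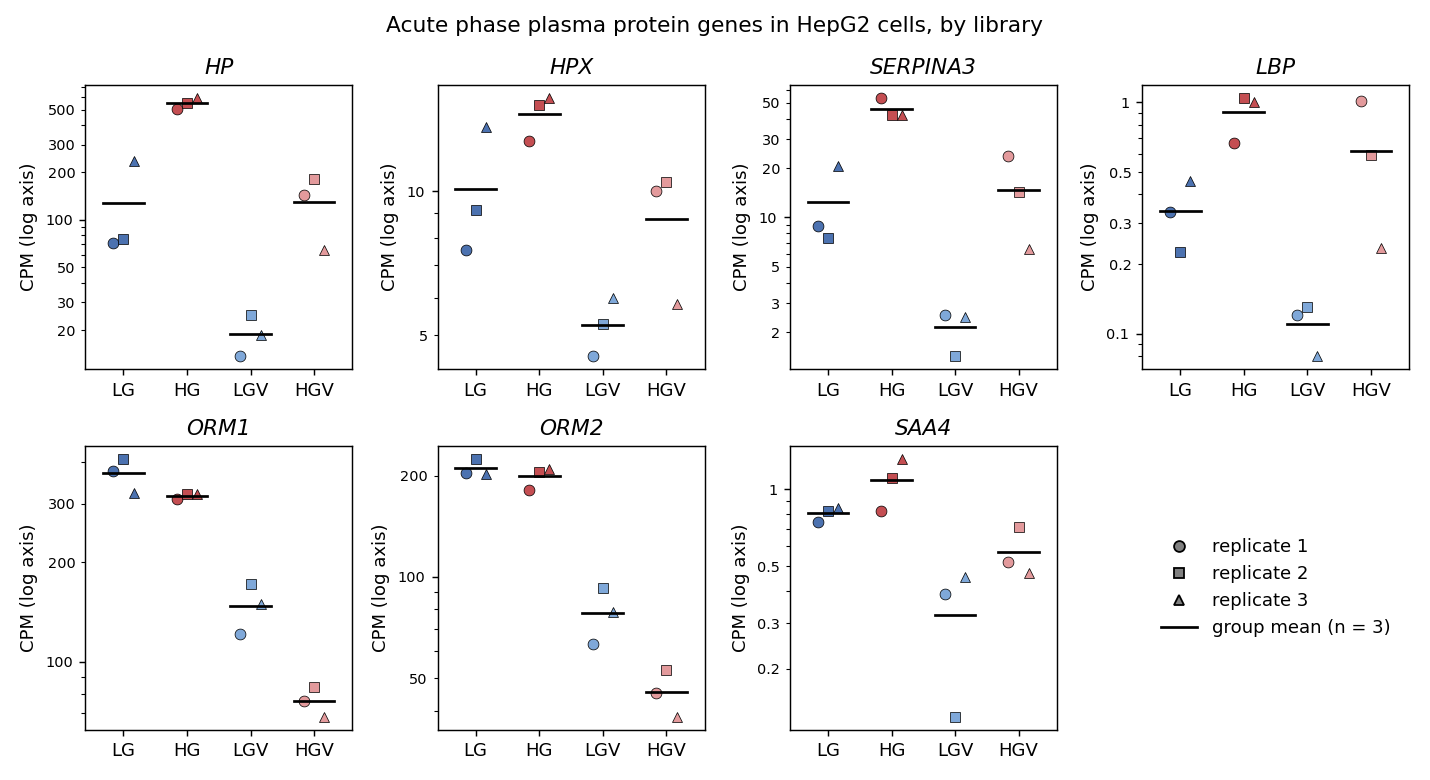
Levels of the 7 members in each library, in CPM scaled with TMM factors on a log axis, with 3 libraries (symbols) and the mean (line) per group. HP, SERPINA3 and LBP were higher in HG than in LG without overlap, while ORM1 and ORM2 were lower in both VPA groups than in either group without VPA.

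**Figure D2:**
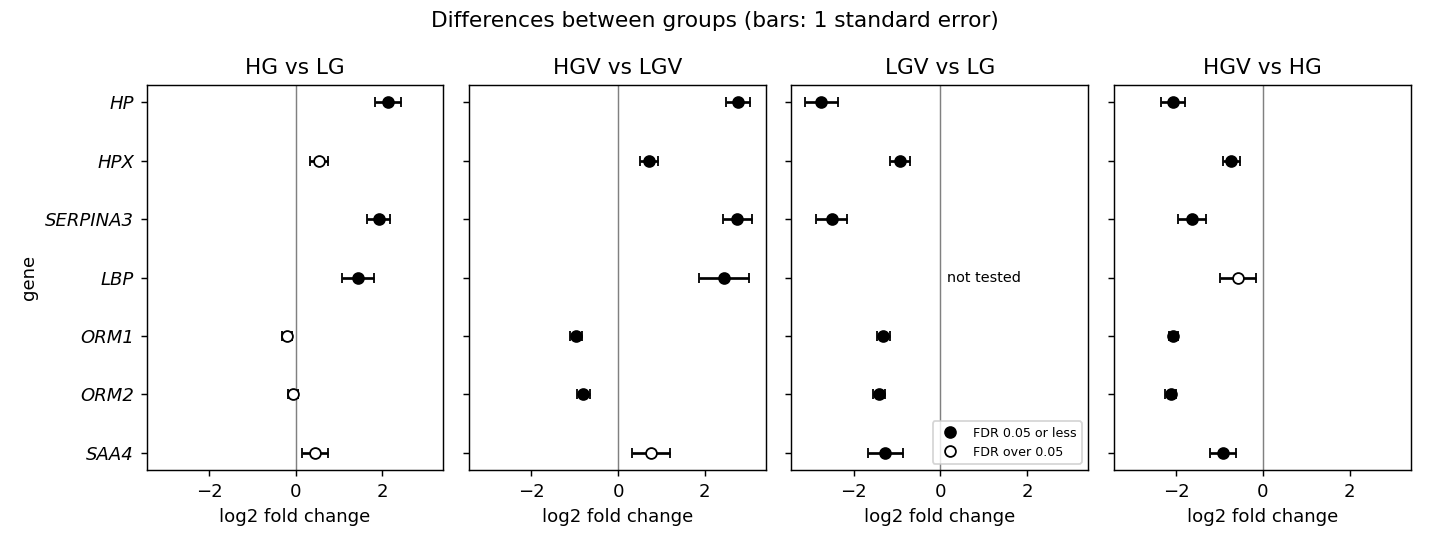
Log2 fold change of each member in the 4 comparisons between groups, with bars of 1 standard error (derived from the F statistic) and filled points at an FDR of 0.05 or less. HP and SERPINA3 lie on the right in both glucose comparisons and on the left in both VPA comparisons, and ORM1 and ORM2 lie on the left in HGV vs LGV.

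HP, the haemoglobin scavenger, had the widest ratio between its highest and its lowest group mean among the 7 members. Its level, in CPM scaled with TMM factors here and for all members, was 71.1, 75.5 and 237 in LG (mean 128 ± 94.4, SD, n = 3). In HG it was 504, 552 and 595 (550 ± 45.3), in LGV 13.7, 24.9 and 18.5 (19.0 ± 5.60) and in HGV 144, 182 and 64.8 (130 ± 59.8). All HG libraries were above all others and all LGV libraries below all others, while HGV and LG overlapped. HP was 4.36-fold higher in HG than in LG (log2 fold change 2.13, SE 0.30, FDR 7.95e-05) and 6.77-fold higher in HGV than in LGV (2.76, SE 0.27, FDR 1.01e-06). VPA lowered it 6.70-fold in LG (-2.74, SE 0.38, FDR 4.69e-05) and 4.22-fold in HG (-2.08, SE 0.28, FDR 5.74e-05). The third LG library set much of the spread, with 3.23 times the mean of the other LG libraries. Without it HP was 7.64-fold higher in HG than in LG (FDR 3.26e-12) and 3.79-fold lower in LGV than in LG (FDR 1.96e-08).

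The paralogue HPR shares sequence windows with HP, and whether any counted read matched both genes was not tested. HPR had 10.6, 4.52 and 20.5 CPM in LG and 37.2, 43.2 and 44.6 in HG. In LGV it had 2.46, 2.89 and 2.08 CPM, and in HGV 12.1, 12.9 and 9.41. The third LG library was again above the others of that group. HPR was higher in HG than in LG (log2 fold change 1.83, SE 0.31, FDR 0.0004) and lower in LGV than in LG (-2.26, SE 0.40, FDR 0.000393). Without the third LG library these were 2.52 (FDR 2.19e-07) and -1.57 (FDR 0.000149). HPR counts were 0.0598 to 0.179 of the HP counts in the same library, so HPR did not track HP at 1 fixed ratio.

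HPX, the haem scavenger, spanned a narrower range. It had 7.55, 9.16 and 13.6 CPM in LG, 12.7, 15.2 and 15.7 in HG, 4.53, 5.29 and 5.98 in LGV, and 10.0, 10.4 and 5.82 in HGV. The groups overlapped in HG against LG and in HGV against LGV, in each case through the third LG or the third HGV library. VPA lowered HPX by 0.93 on the log2 scale in LG (SE 0.22, FDR 0.0038) and it fell by 0.73 in HG (SE 0.20, FDR 0.00903), and here the groups did not overlap. HPX was higher in HGV than in LGV (log2 fold change 0.71, SE 0.21, FDR 0.011), a call that was lost without the first HGV library (FDR 0.0604). Without VPA the value of HG against LG was 0.54 (SE 0.20, FDR 0.0532), and it passed without the third LG library (0.82, FDR 0.00194).

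SERPINA3, the protease inhibitor, had the same order of group means as HP, HG above HGV above LG above LGV. It had 8.90, 7.51 and 20.6 CPM in LG (12.3 ± 7.19), 53.6, 42.3 and 42.3 in HG (46.1 ± 6.53), 2.55, 1.43 and 2.46 in LGV (2.14 ± 0.621), and 23.6, 14.2 and 6.44 in HGV (14.7 ± 8.58). No HG library overlapped another group and no LGV library did, while HGV and LG overlapped. High glucose raised SERPINA3 3.77-fold without VPA (log2 fold change 1.91, SE 0.26, FDR 4.63e-05) and 6.74-fold with it (2.75, SE 0.34, FDR 1.04e-05). VPA lowered it 5.70-fold in LG (-2.51, SE 0.35, FDR 5.1e-05) and 3.13-fold in HG (-1.65, SE 0.32, FDR 0.00115). Without the third LG library the difference was 5.72-fold in HG against LG (FDR 2.45e-09) and 3.72-fold lower in LGV against LG (FDR 2.87e-06).

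LBP, the lipopolysaccharide carrier, was close to the counting limit. Its reads numbered 9, 9 and 18 in LG, 21, 35 and 36 in HG, 4, 4 and 3 in LGV, and 33, 25 and 8 in HGV. In CPM it had 0.337, 0.225 and 0.460 in LG, 0.666, 1.05 and 1.01 in HG, 0.120, 0.130 and 0.0801 in LGV, and 1.01, 0.594 and 0.235 in HGV. HG lay above LG and HGV above LGV without overlap, but HG and HGV overlapped because the first HGV library was as high as HG. LBP was 2.70-fold higher in HG than in LG (log2 fold change 1.43, SE 0.37, FDR 0.0082) and 5.41-fold higher in HGV than in LGV (2.44, SE 0.58, FDR 0.00268). The latter rests on LGV libraries of 3 or 4 reads, and LBP passed the filter of a mean count of 10 there only through HGV. It was tested in 5 of the fits that left out 1 library, while the other members were tested in 6. HGV against HG gave -0.57 (SE 0.42, FDR 0.286). In LGV against LG its mean count was under 10 and it was not tested, and without that filter the value was -1.61 (SE 0.54, FDR 0.0269).

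The orosomucoids behaved differently. ORM1 had 377, 411 and 323 CPM in LG (371 ± 44.2), 309, 320 and 322 in HG (317 ± 7.03), 121, 172 and 150 in LGV (148 ± 25.2), and 76.0, 83.6 and 68.1 in HGV (75.9 ± 7.74). All 4 groups were apart, in the order LG, HG, LGV, HGV, although LG and HG were separated only by the gap between 323 and 322 CPM. The difference of HG from LG did not pass the test (log2 fold change -0.20, SE 0.12, FDR 0.239). VPA lowered ORM1 2.49-fold in LG (FDR 5.61e-06) and 4.18-fold in HG (-2.06, SE 0.11, FDR 3.54e-08). With VPA in both media ORM1 was 1.97-fold lower in HGV than in LGV (-0.98, SE 0.14, FDR 3.44e-05).

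ORM2 gave nearly the same picture. Its level was 204, 225 and 202 CPM in LG, 181, 205 and 210 in HG, 63.0, 92.5 and 78.6 in LGV, and 45.3, 52.7 and 38.4 in HGV. LG and HG overlapped, and each VPA group lay below both and apart from the other. The log2 fold change was -0.06 in HG against LG (SE 0.12, FDR 0.764), and its sign changed without the second LG library (0.02, FDR 0.942), without the first HG library (0.02, FDR 0.925) and with scaling by library size alone (0.04, FDR 0.799). VPA lowered ORM2 2.67-fold in LG (-1.42, SE 0.14, FDR 2.17e-06) and 4.38-fold in HG (-2.13, SE 0.13, FDR 9.77e-08), and it was 1.74-fold lower in HGV than in LGV (-0.80, SE 0.15, FDR 0.000391). Counts of ORM1 were 1.53 to 1.93 times those of ORM2 in the same library over all 12 libraries. The part that the assignment of reads over the shared windows had in this ratio was not tested.

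SAA4, the serum amyloid A gene with a row in the table, was expressed at 0.748, 0.823 and 0.842 CPM in LG, 0.824, 1.11 and 1.32 in HG, 0.390, 0.130 and 0.454 in LGV, and 0.521, 0.713 and 0.471 in HGV. These levels correspond to 4 to 47 reads per library. LG and HG overlapped, whereas each VPA group lay below its medium control. It was lower in LGV than in LG (log2 fold change -1.27, SE 0.41, FDR 0.0209), a call that was lost without the first LG library (FDR 0.0506), without the second LGV library (FDR 0.091) and with scaling by library size alone (FDR 0.059). It was also lower in HGV than in HG (-0.92, SE 0.30, FDR 0.0252), and this call was lost without the second HG library (FDR 0.0646), the third HG library (FDR 0.118), the first HGV library (FDR 0.0729) or the third HGV library (FDR 0.0869). High against low glucose did not pass the test without VPA (0.45, SE 0.30, FDR 0.282) or with it (0.77, SE 0.44, FDR 0.17).

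Whether the effect of glucose differed with VPA was tested by the interaction in 1 fit of the 12 libraries, where a positive value means a larger rise with glucose under VPA. Of 7 members 0 passed in edgeR (2 at an unadjusted p under 0.05), against 0.0427% of 16389 genes (7 genes, with 1852 at an unadjusted p under 0.05). The values were -0.74 for ORM1 (SE 0.19, FDR 0.114) and -0.70 for ORM2 (SE 0.20, FDR 0.148). LBP had 1.04 (SE 0.71, FDR 0.62), SERPINA3 0.87 (SE 0.52, FDR 0.553), HP 0.67 (SE 0.51, FDR 0.66), SAA4 0.36 (SE 0.51, FDR 0.85) and HPX 0.21 (SE 0.31, FDR 0.857). DESeq2 called 1 member, ORM1 (-0.77, FDR 0.0262), and 162 genes in all, and edgeR without the second LG library called ORM1 as well (-0.85, FDR 0.0346). Without the third LG library the value of HP turned to -0.13 (FDR 0.945), that of HPX to -0.06 (FDR 0.971) and that of SERPINA3 fell to 0.27 (FDR 0.888). Without the second LGV library that of SAA4 turned to -0.02 (FDR 0.995).

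**Figure D3:**
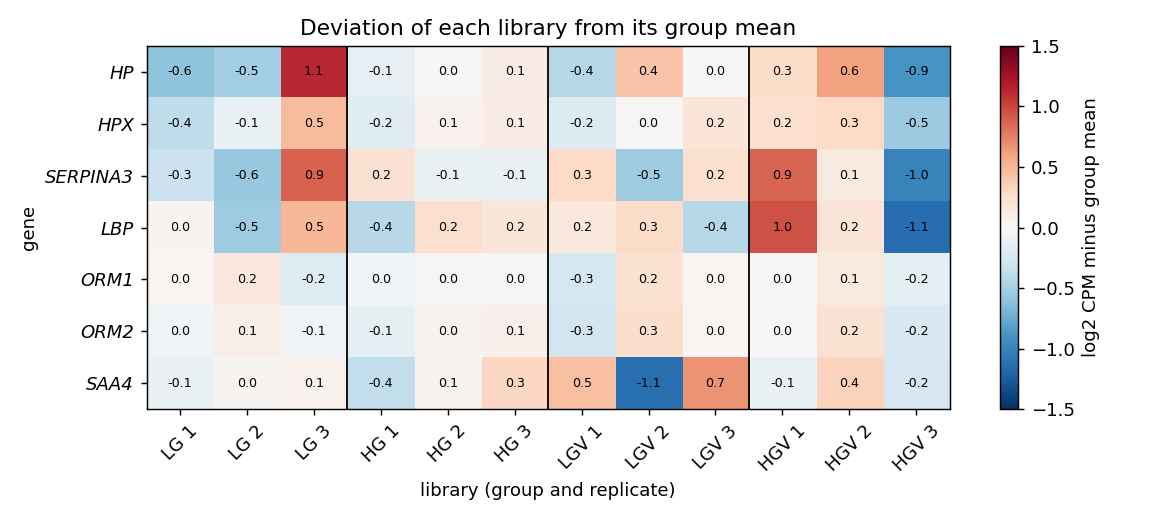
Deviation of each library from the mean of its group, in log2 CPM, for the 7 members (rows) and 12 libraries (columns). HP, HPX, SERPINA3 and LBP were high together in the third LG library and low together in the third HGV library, while ORM1 and ORM2 deviated by less than HP in both.

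Replicates of LG and of HGV did not differ alike for all members. The third LG library exceeded the mean of the other LG libraries 3.23-fold for HP, 2.51-fold for SERPINA3, 1.64-fold for LBP and 1.63-fold for HPX. ORM1 and ORM2 in that library were at 0.82 and 0.942 times the others. The glucose-responsive gene TXNIP did not stand apart in it (6.31 CPM, against 6.58 and 6.21), and HSPA5, an endoplasmic reticulum chaperone, had 4247 CPM against 5862 and 5517. In the third HGV library HP was 2.52-fold lower than the mean of the other HGV libraries, SERPINA3 2.93-fold, LBP 3.41-fold and HPX 1.75-fold, while ORM1 was 1.17-fold, ORM2 1.28-fold and HSPA5 1.22-fold lower. TXNIP had 344 CPM there, as in the second HGV library. Within HG, TXNIP itself varied, with 107 CPM in the first library against 389 and 277 in the others. The labels name no batch, and the part of any handling difference in these deviations was not tested.

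Levels of different genes were compared per kilobase of the canonical transcript. In LG the order of means was ORM1 (485 CPM per kilobase), ORM2 (277), HP (83.3), SERPINA3 (7.83), HPX (6.42), SAA4 (1.28) and LBP (0.186). In HG the mean of HP was 359 CPM per kilobase, between 415 for ORM1 and 262 for ORM2. These 3 genes did not overlap over their HG libraries on that scale. Per kilobase of 50-base windows found in no other gene, HP (mean 566, range 519 to 612) and ORM2 (562, range 512 to 593) overlapped in HG, so their order there depends on the length used. On the same scale HPX (mean 6.62, range 4.95 to 8.92) and SAA4 (5.33, range 4.95 to 5.58) overlapped in LG. SERPINA3 had no such window and therefore no value on that scale. Within a library HP had 0.184 to 0.732 times the counts of ORM1 in LG, 1.63 to 1.85 times in HG, 0.113 to 0.145 times in LGV and 0.950 to 2.17 times in HGV. The high-glucose groups thus lay above the low-glucose groups in this ratio without overlap. Per kilobase of the canonical transcript, the neighbours in the LG order SERPINA3 (4.77 to 13.1) and HPX (4.80 to 8.64) overlapped over their LG libraries.

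Promoter sequence was available for 4 of the 7 members in the RefSeq table (GRCh38.p14) as the 250 bases before the start site. These are printed because the known elements of this gene class can be looked for in them. All 4 members were lower with VPA in both media. They did not move alike with glucose, where SERPINA3 rose and ORM1 did not. Both strands were searched for short motifs of this gene class. STAT sites were searched as TTCNNNGAA. The type II IL-6 element was searched as CTGGGAA. C/EBP sites were looked for as TTGCNNAA. For the HNF1 family the letters were GTTAAT. The TATA box was written as TATAAA. Matches are in capitals, and no match overlapped another. The positions are chr11:6440988-6441237 (- strand) for HPX, chr9:114322848-114323097 (+ strand) for ORM1, chr11:18236803-18237052 (- strand) for SAA4 and chr14:94612141-94612390 (+ strand) for SERPINA3.
HPX: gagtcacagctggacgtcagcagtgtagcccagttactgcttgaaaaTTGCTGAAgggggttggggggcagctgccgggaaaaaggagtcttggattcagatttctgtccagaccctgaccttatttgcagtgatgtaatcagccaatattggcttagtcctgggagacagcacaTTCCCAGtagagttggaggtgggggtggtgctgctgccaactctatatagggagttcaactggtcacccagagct
ORM1: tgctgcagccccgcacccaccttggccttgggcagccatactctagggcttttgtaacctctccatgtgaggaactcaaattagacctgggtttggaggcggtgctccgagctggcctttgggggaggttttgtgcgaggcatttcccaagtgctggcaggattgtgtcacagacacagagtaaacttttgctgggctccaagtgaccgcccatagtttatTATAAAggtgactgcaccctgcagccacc
SAA4: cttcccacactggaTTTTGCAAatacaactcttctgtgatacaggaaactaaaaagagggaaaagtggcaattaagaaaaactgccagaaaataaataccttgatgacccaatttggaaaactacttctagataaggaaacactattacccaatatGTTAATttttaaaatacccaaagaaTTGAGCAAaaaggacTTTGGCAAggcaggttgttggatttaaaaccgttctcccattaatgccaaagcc
SERPINA3: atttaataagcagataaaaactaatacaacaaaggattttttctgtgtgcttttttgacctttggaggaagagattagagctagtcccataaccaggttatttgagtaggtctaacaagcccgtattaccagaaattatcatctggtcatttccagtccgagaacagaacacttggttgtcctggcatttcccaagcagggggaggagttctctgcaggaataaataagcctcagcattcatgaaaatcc
HPX held the type II IL-6 letters on the opposite strand 75 to 69 bases before the start and the C/EBP letters 203 to 196 bases before it. ORM1 held TATAAA 29 to 24 bases before the start. SAA4 held the C/EBP letters on the opposite strand 3 times, first 236 bases before the start, and the HNF1 letters 94 to 89 bases before it. SERPINA3 held none of the 5 in this window. The STAT letters were held by 6.78% of the 27305 promoters in that source, the type II IL-6 letters by 9.30%, the C/EBP letters by 9.13%, the HNF1 letters by 6.22% and the TATA letters by 11.1%. These matches are a description of letters and not of bound sites. HP, ORM2 and LBP had no entry.

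Other genes of the response were described with lists of named symbols. Over all genes tested, 12.0% were called higher and 12.7% lower in HG against LG, and 21.2% and 19.5% in HGV against LGV. In LGV against LG the shares were 21.7% and 19.9%, and in HGV against HG 25.8% and 20.2%. Of 20 other positive acute phase proteins 17 had a row and were tested. High glucose raised 14 and lowered 0 of them (median log2 fold change 0.83), and in HGV against LGV 14 rose and 0 fell (1.04). VPA lowered 14 and raised 1 in LG (-0.79) and lowered 12 and raised 1 in HG (-0.58). The 14 rises in HG against LG were 10 without the first LG library, and the 14 in HGV against LGV were 11 without the third LGV library. The 14 falls in LGV against LG were 11 without the third LGV library. The 12 falls in HGV against HG were 9 without the third HG library. The 0 falls in HG against LG were 1 without the third LG library or the second HG library. The 1 rise in HGV against HG was 2 without the second HG library. SERPING1, the C1 inhibitor, had 2.15 in HG against LG (SE 0.14, FDR 1.26e-08), HAMP, which encodes the iron hormone hepcidin, 1.95 (SE 0.47, FDR 0.00563) and FGL1, a fibrinogen-like protein, 1.35 (SE 0.13, FDR 1.35e-06). The call of HAMP was lost without the first LG library (FDR 0.0671) and with DESeq2 (FDR 0.104), and its value was 3.61 without the third LG library (FDR 4.49e-08). In HGV against LGV HAMP, with 36, 13 and 14 reads in LGV, had 4.66 (FDR 1.52e-08), and 5.31 without the first LGV library (FDR 8.64e-07). LRG1 had 1.29 there (FDR 1.34e-06). Under VPA the genes that fell included MBL2, the mannose-binding lectin (-1.62 in LG, FDR 0.00637, and -1.70 in HG, FDR 4.53e-06), IL1RN, the interleukin-1 receptor antagonist (-1.22 and -1.32), FGA, the fibrinogen alpha chain (-1.16 in LG), and FGL1 (-1.20 in HG). Without the third LG library MBL2 in LGV against LG was -0.83 (FDR 0.0442). SERPING1 was higher in LGV than in LG (means 24.7 and 14.5 CPM) and HAMP in HGV than in HG (16.0 and 6.96), each without overlap. In the other medium the groups overlapped, with SERPING1 means of 64.3 in HGV and 63.9 in HG and HAMP means of 0.625 in LGV and 1.79 in LG.

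Of 16 negative acute phase proteins 14 were tested. High glucose raised 6 and lowered 1, and in HGV against LGV 8 rose and 1 fell. VPA lowered 7 and raised 1 in LG and lowered 4 and raised 3 in HG. The share of all genes called in each direction is given above for each comparison. The count of 6 was 2 without the third HG library, and that of 8 was 4 without the third LGV library or without the third HGV library. The 1 fall with glucose was lost without the first LG library or the first HG library. APOA1, the main protein of high-density lipoprotein, was higher in HGV than in LGV (log2 fold change 0.94, FDR 0.000184), as were SERPINA7, the thyroxine carrier (1.19, FDR 1.54e-06), and RBP4, the retinol carrier (0.83, FDR 0.000218). Among those that rose with glucose without VPA, HRG had 1.18 (FDR 0.0253), FETUB 0.79 (FDR 0.0138) and F12 0.76 (FDR 0.00858). The call of HRG was lost without the first LG library (FDR 0.0964), the first HG library (FDR 0.106) or the third HG library (FDR 0.0582) and with DESeq2 (FDR 0.0682), and those of FETUB and F12 were lost without the third HG library (FDR 0.05002 and 0.0522). PON1 rose with VPA in LG (1.99, FDR 0.000675) and in HG (2.68, FDR 1.69e-05), while APOA2 fell (-0.99 and -1.01). Without VPA, PON1 had only 4, 27 and 19 reads in LG and 12, 17 and 17 in HG, and HRG had 7, 18 and 11 in LG. SERPINA7 fell in LG (-1.20) and ITIH2 in HG (-0.72).

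**Figure D4:**
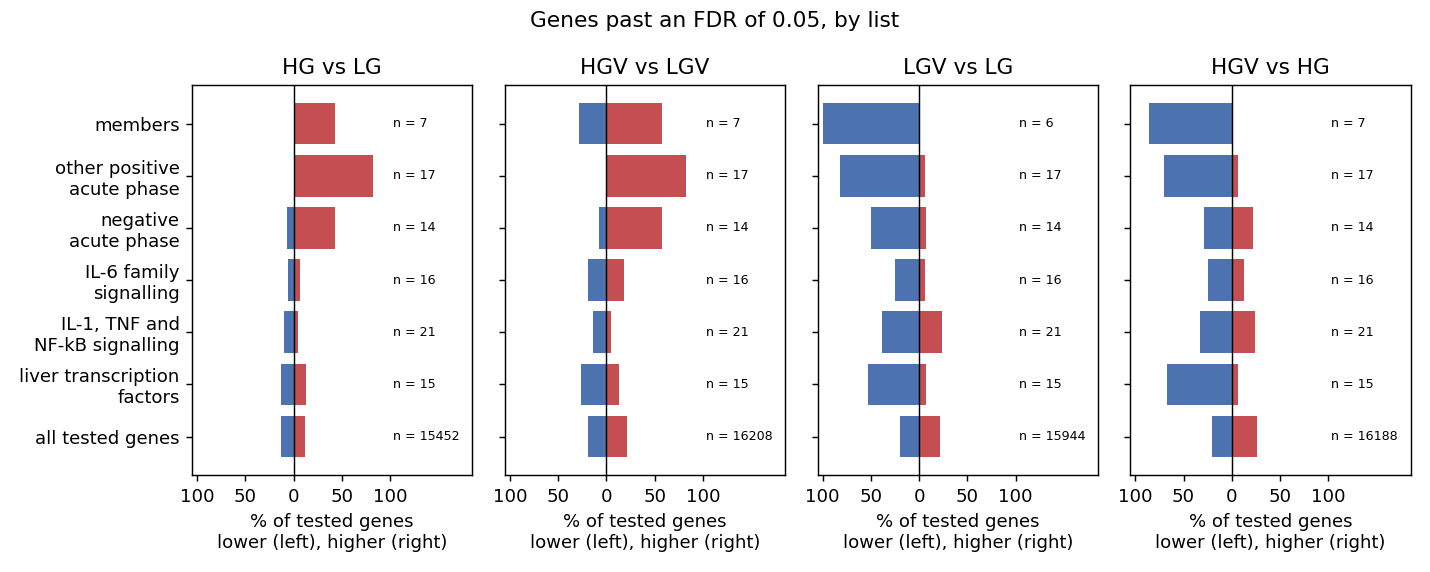
Share of tested genes called higher (right, red) or lower (left, blue) at an FDR of 0.05 or less, in per cent, for the members, 5 lists and all tested genes in the 4 comparisons, with the number tested. The other positive acute phase proteins had 14 of 17 genes higher in both glucose comparisons and 14 and 12 of 17 lower under VPA.

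The IL-6 receptor chain and the proteins that pass on its signal were measured as transcripts, with 16 of 17 genes in the table. There were 1 rise and 1 fall in HG against LG, while in HGV against LGV 3 rose and 3 fell. In LGV against LG 1 rose and 4 fell, and in HGV against HG 2 rose and 4 fell. Over all genes, 12.0% were higher and 12.7% lower in HG against LG, and 21.2% and 19.5% in HGV against LGV. The shares were 21.7% and 19.9% in LGV against LG, and 25.8% and 20.2% in HGV against HG. The 1 fall in HG against LG was 4 without the third LG library and 0 without the first or the second LG library or the second or the third HG library. The 1 rise in LGV against LG was 2 without the first LG library or the first LGV library, and the count of falls in LGV against LG was 2 without any 1 of the LGV libraries. The 3 falls in HGV against LGV were 1 without the first or the second LGV library or the third HGV library and 0 without the third LGV library. SOCS3, the feedback inhibitor that STAT3 induces, rose from a mean of 4.39 CPM in LG to 16.0 in HG (log2 fold change 1.89, SE 0.20, FDR 2.28e-06) and was higher in HGV than in LGV (1.23, FDR 0.0011). VPA lowered SOCS3 in HG (-1.07, FDR 0.0037), and in LG its value was -0.43 (FDR 0.152). IL6R, the ligand-binding receptor chain, fell with VPA by 1.18 on the log2 scale in LG (FDR 8.56e-06) and in HG (FDR 3.26e-06), as did BCL3, an NF-kB cofactor (-0.84 and -1.11). IL11RA rose with VPA in LG (0.82, FDR 0.00696) and was higher in HGV than in LGV (0.59, FDR 0.0174), which was lost without the second LGV library (FDR 0.0606) or the third HGV library (FDR 0.069). TYK2, a JAK family kinase, was higher in HGV than in LGV (0.49, FDR 0.00329). The transcripts of STAT3 and of the gp130 chain IL6ST were not called in any of the 4 comparisons, with means of 291 to 342 CPM and 112 to 124 CPM.

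Of 24 genes of IL-1, TNF and NF-kB signalling 21 were tested. Their counts stand beside the shares of all genes called that are given with the IL-6 list. In HG against LG 1 rose and 2 fell, in HGV against LGV 1 rose and 3 fell, in LGV against LG 5 rose and 8 fell, and in HGV against HG 5 rose and 7 fell. MYD88, the adaptor of the IL-1 receptor, fell with VPA in LG (log2 fold change -1.33, FDR 1.94e-06) and in HG (-1.65, FDR 2.47e-07). IKBKG, the regulatory subunit of the IkB kinase, fell as well (-1.90, FDR 1.16e-06, and -1.48, FDR 2.8e-05), as did NFKB1 in HG (-1.45, FDR 4.23e-07) and IL1R1 in LG (-1.02, FDR 0.000341). The inhibitor gene NFKBIA was lower in HG than in LG (-0.58, FDR 0.0044) and in HGV than in LGV (-0.84, FDR 0.000237), and NFKB1 was lower in HGV than in LGV (-0.70) while NFKBIZ was higher (0.66). IKBKG also had -0.58 in HG against LG (FDR 0.0208) and IL1R1 0.56 (FDR 0.018). The call of IKBKG was lost without the first LG library (FDR 0.113), the first HG library (FDR 0.0851) or the second HG library (FDR 0.0512), and that of IL1R1 without the first LG library (FDR 0.113), the second LG library (FDR 0.0696) or the first HG library (FDR 0.0909). The 1 rise in HG against LG was 5 without the third LG library and 0 without the first LG or the first HG library, and the 2 falls were 1 without the first LG, the first HG or the second HG library. Without the first LG library or the second LGV library 3 rose in LGV against LG, and without the first LGV library 5 fell in HGV against LGV. The 1 rise in HGV against LGV was 2 without the first LGV library and 3 without the second HGV library.

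The liver transcription factors of acute phase promoters numbered 15, all tested. For the share of all genes called in each comparison, see the IL-6 list. Of these 2 rose and 2 fell in HG against LG, and in HGV against LGV 2 rose and 4 fell. VPA lowered 8 and raised 1 in LG and lowered 10 and raised 1 in HG, where the count of 10 was 6 without the second HG library. The 2 rises in HG against LG were 1 without the first or the third LG or the first or the third HG library, and the 2 falls were 1 without the first or the second LG or the third HG library and 0 without the second HG library. The 2 rises in HGV against LGV were 1 without the second LGV, the third LGV or the third HGV library. The 1 rise under VPA was lost in LG without the third LG, the second LGV or the third LGV library, and in HG without the second HG, the third HG or the third HGV library. CEBPD, a C/EBP factor known as an acute phase gene itself, had mean levels of 17.5 CPM in LG, 30.7 in HG, 5.63 in LGV and 7.03 in HGV. It rose with glucose (log2 fold change 0.83, SE 0.21, FDR 0.00684), a call lost without the first LG library (FDR 0.0569), and fell with VPA in LG (-1.63, FDR 3.05e-05) and in HG (-2.12, FDR 7.02e-06). CEBPA fell with VPA in LG (-1.26, FDR 0.00164), MAZ in both media (-0.86 and -1.04) and FOXA1 in HG (-0.95, FDR 9.13e-06). CEBPA was higher in HGV than in LGV (0.68, FDR 0.0316), which was lost without the second LGV library (FDR 0.115), the third LGV library (FDR 0.0676) or the third HGV library (FDR 0.188), and CEBPG was lower (-0.58, FDR 0.000934). NR5A2 was lower in high glucose without VPA (-0.73, FDR 0.0126) and with it (-0.70, FDR 0.00467), the former lost without the second HG library (FDR 0.0646). CREB3L3 had 0.49 in HG against LG (FDR 0.0413), a call that held without the first LG library or the second HG library and was lost in the other 4 of 6 fits that left out 1 library, with an FDR of up to 0.186. CEBPB was not called in any of the 4 comparisons, with means of 210 to 255 CPM.

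Receptors and enzymes that act with the members were tested for 10 of 12 genes. The shares of all genes called, given with the IL-6 list, apply to these counts too. In HG against LG 1 rose and 1 fell, in HGV against LGV 3 rose and 2 fell, in LGV against LG 4 rose and 2 fell, and in HGV against HG 3 rose and 2 fell. In HG against LG 2 rose and 3 fell without the third LG library, and the 4 rises in LGV against LG were 2 without the first LG library, the second LGV library or the third LGV library. The 2 falls in LGV against LG were 1 without the first LG library, and those in HGV against HG were 1 without the second HG or the third HGV library and 0 without the third HG library. The 2 falls in HGV against LGV were 1 without the second LGV, the third LGV or the third HGV library and 0 without the first HGV library. CD14, to which LBP hands lipopolysaccharide, rose from a mean of 1.86 CPM in LG to 4.43 in HG (log2 fold change 1.28, SE 0.26, FDR 0.0016) and was higher in HGV than in LGV (1.51, FDR 0.000381). It is also one of the macrophage markers given above. In HGV against HG CD14 was lower (-0.56, FDR 0.0218), but this was lost without the second HG library (FDR 0.0721), the third HG library (FDR 0.0887) or the third HGV library (FDR 0.0849) and with scaling by library size alone (FDR 0.0621). BLVRB, a biliverdin reductase of haem breakdown, rose with VPA (1.10 in LG, FDR 8.05e-05, and 1.74 in HG, FDR 1.36e-06) and SLC40A1, the iron exporter, rose in HG (1.12, FDR 8.98e-05). FTL, the ferritin light chain, was lower in HG than in LG (-0.57, FDR 0.00332) and in LGV than in LG (-0.69, FDR 0.000814).

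Among 18 paralogues and genomic neighbours of the members, 15 were tested. Here too the counts stand beside the shares of all genes called given with the IL-6 list. High glucose without VPA raised 3 and lowered 4, in HGV against LGV 6 rose and 3 fell, in LGV against LG 1 rose and 5 fell, and in HGV against HG 4 rose and 3 fell. The 4 falls in HG against LG were 1 without the first LG library and 2 without the second or the third HG library, and the 4 rises in HGV against HG were 2 without the second HG library or the third HGV library. The 1 rise in LGV against LG was 2 without the third LG library. The serpin SERPINA11, from the cluster that holds SERPINA3, was higher in HG than in LG (log2 fold change 1.20, FDR 5.41e-06) and in HGV than in LGV (1.72, FDR 5.78e-08), and fell with VPA in LG (-1.16, FDR 1.29e-05). SERPINA10 of the same cluster, an inhibitor of coagulation factor Xa, fell with VPA in LG (-2.44, FDR 1.8e-06) and in HG (-2.21, FDR 1.46e-07). SERPINA4 was higher in HGV than in LGV (1.34, FDR 2.24e-06). AKNA, the neighbour of the ORM pair, was lower in HG than in LG (-0.76, FDR 0.00193), and TRIM3, a neighbour of HPX, rose with VPA in HG (1.03, FDR 6.91e-05). HPR, described above with HP, also fell with VPA in HG (-1.86, FDR 5.33e-07). In the interaction, edgeR and DESeq2 each called 0 genes of the 7 lists, with 2 other positive and 4 negative acute phase proteins, 0 genes of IL-6 signalling, 3 of NF-kB signalling, 1 liver factor, 3 partners and 3 paralogues or neighbours at an unadjusted p under 0.05 in edgeR.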

How the data were processed

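The count table of 12 HepG2 RNA-seq libraries (LG, HG, LGV and HGV, 3 each) was used. The authors trimmed 50 nt reads, aligned them with STAR to GRCh37, counted them per gene with featureCounts at a mapping quality of at least 10 and deposited raw counts. They had dropped genes averaging fewer than 10 reads. The strand setting and the treatment of ambiguous reads are not given in the sources used here.

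Differences were tested by the two-sided quasi-likelihood F test of edgeR 4.0.16 (R 4.3.3), with TMM factors. Each SE given was derived from that test, as the absolute log2 fold change divided by the square root of the F statistic. A mean count of 10 or more over the compared libraries was required, which left LBP out of LGV against LG, and p-values were adjusted over all genes tested. The interaction used 1 fit of 12 libraries with glucose, VPA and their product. Totals of 29798442 to 45572694 reads put a floor of 3 reads at 0.0713 to 0.112 CPM, which covers counting error only. CPM values were scaled with TMM factors. Replicates differed by more than counting noise, so none was merged.

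Members and lists were chosen with earlier results of these data known. All members in the table are named, with the counts of each list and up to 3 called genes of each list with the largest absolute log2 fold change per comparison. A gene that meets this rule is not reported here. Values of SOCS3, IL6ST, STAT3, CEBPB, CD14, SERPING1, HAMP, PON1 and HRG given outside that rule were added after they were seen. So were HPR, TXNIP and HSPA5. Sequence identity, shared 50-base windows and positions came from GENCODE v44 on GRCh37, promoters from RefSeq on GRCh38.p14. Alternatives were DESeq2 size factors, library size alone, no filter or 1 CPM in 3 libraries, the Wald test of DESeq2 1.42.0, a replicate block, 1 fit of 12 libraries and leaving out each library. The fits were also run on counts simulated from the fitted model, with changes placed only in genes with higher counts. That check does not cover libraries that stand apart or low counts such as those of LBP and SAA4. Figures were drawn with matplotlib 3.10.9.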

Additional observations from a re-analysis of the deposited data

How the results depend on the processing

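Of 474 values of the members under the alternatives, 454 kept their direction and their side of the threshold, 8 lost the call, 6 gained it and 6 changed sign. The sign changes were those of ORM2 in HG against LG (0.042 with library size alone, 0.017 without LG replicate 2 and 0.021 without HG replicate 1, with -0.093 to 0.021 over the fits that left out 1 library) and, in the interaction, of HP (-0.13, range -0.13 to 1.00) and HPX (-0.061, range -0.061 to 0.44) without LG replicate 3 and of SAA4 (-0.019, range -0.019 to 0.69) without LGV replicate 2. The calls lost were those of SAA4 and, in HGV against LGV, HPX, and the calls gained were those of HPX in HG against LG and ORM1 in the interaction. The cause was not tested. Leaving out 1 library gave 1933 to 5338 genes called in HG against LG (3813 with all; 1933 without LG replicate 1, 2076 without HG replicate 3), 1 to 217 in the interaction (7 with all) and 0 to 1 members there. The interaction called 1 gene with library size alone, 162 with DESeq2 (1 member of 6 with an adjusted p) and, in an alternative chosen after seeing the data, 14 without both LG replicate 3 and HGV replicate 3. With the replicate block 13 genes passed the interaction, and 4, 6, 6 and 6 members passed in HG against LG, LGV against LG, HGV against HG and HGV against LGV. The block gained HPX in HG against LG (0.58, FDR 0.0306). Samples of the same number did not deviate together (mean correlation of -0.14, 0.05, 0.11 and 0.10 in these comparisons), and 0, 1, 1 and 1 of 3 correlated best with their own number. A filter of 1 CPM left out members with low counts and left 2, 5, 5 and 5 members called. For the list genes, recomputed under the same alternatives after seeing the data, 1019 of 1065 values kept their call and 46 lost it. Depth limits LBP and SAA4, with as few as 3 and 4 reads. It also limits the list genes PON1, HRG and HAMP, with as few as 4, 7 and 13 reads.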
